A study of Homo sapiens with 6 samples.

Results

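Integrins, laminins and collagens are the receptors and structural proteins with which a cell holds on to its surroundings, and their messenger RNA levels were followed here in LNCaP cells given dihydrotestosterone (DHT), the strongest androgen that the body makes. The genes were chosen by symbol, with earlier results of these data known. Every gene of the deposited table was taken whose symbol begins as an integrin alpha or beta subunit, a laminin chain or a collagen chain. This gave 78 of the 17990 genes of the table, and 42 of them had a mean count of at least 20 over the libraries and are called measured; 11916 genes of the table met the same minimum. The 78 genes were 17 integrin alpha subunits, 8 integrin beta subunits, 12 laminin chains, 40 collagen chains and COL4A3BP (now CERT1), which matches by its symbol but encodes a ceramide transfer protein and no collagen chain. Measured were 10, 5, 9, 17 and 1 of these in the same order.

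LNCaP is an established line from a human prostate carcinoma that responds to androgen. The 6 libraries were 1 each from untreated cells at 0 h and from cells kept for 3, 6, 12, 24 and 48 h in 10 nM DHT, and all cells had been held beforehand in serum depleted of hormones. By its title the series asks how androgen regulates transcripts in time. The libraries held between 13179917 and 20587956 counts over the listed transcripts. With 1 library per time there was no spread between replicates and no test across samples, and untreated cells at later times were not analysed here, so time in culture and time with DHT cannot be told apart. A gene was called higher or lower by a fixed rule of size, a difference of at least 2-fold from 0 h in log2(CPM + 1), where CPM is the count per 1000000 counts of the library; the added 1 makes the rule stricter for genes at a few CPM. Ratios of CPM are given with exact 95% intervals, which cover counting error only. Levels in a culture also do not separate a change in every cell from a change in some cells.

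Integrins span the cell membrane as pairs of 1 alpha and 1 beta subunit; the pair decides the ligand, and the beta tail binds adaptors that lead to actin or, for ITGB4, to keratin filaments. Laminins are trimers of an alpha, a beta and a gamma chain and form, with the type IV collagen network, the basement membrane on which prostate epithelium sits. Collagens are trimers of alpha chains; fibrillar types build the fibres of the stroma, and the types with interrupted helices sit on the surface of those fibres. In the normal gland fibroblasts make most fibrillar collagen, basal cells carry the hemidesmosome, and luminal cells, from which LNCaP derives its character, rest above them.

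The cells carried the luminal markers of the line in every library: the secreted protease KLK3 had 10012 CPM at 24 h, against 4727 CPM at 0 h, and KLK2, TMPRSS2 and the keratins KRT8 and KRT18 were each at 344 CPM or more in all 6 libraries. The 6 fibroblast markers DCN, LUM, PDGFRB, PDGFRA, FAP and POSTN summed to 0.486 CPM at 24 h and 0.532 CPM at 48 h, against 3.19 CPM at 0 h, of which PDGFRB made up 2.73 CPM, and POSTN had no read in any library. This small sum moved in the same direction as the collagens described below, and its part in them was not tested. The 3 basal markers KRT5, KRT14 and TP63 stayed between 0.332 and 0.895 CPM in sum, and the leukocyte markers PTPRC, CD3E and CD14 between 0 and 0.152 CPM. Of the endothelial markers, PECAM1 and CDH5 stayed below 0.709 CPM each while VWF ran from 5.29 CPM at 24 h to 23.2 CPM at 3 h.

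The starts of 5 genes on which the results turn are shown as the 250 bases before the annotated start, 5' to 3' on the strand of the gene, from RefSeq on GRCh38.p14. ITGAV and LAMC1 stand for the genes that were higher with DHT, COL16A1 and COL9A2 for those that were lower, and COL4A5 for a gene that shares its start region with a neighbour. Capitals mark the GC box GGGCGG on either strand; the other motifs searched, the androgen response element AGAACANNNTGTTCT, its half-site TGTTCT, which the full element contains, and the TATA box TATAAA, each on both strands, have no match in these windows.
ITGAV, chr2:186589806-186590055, + strand: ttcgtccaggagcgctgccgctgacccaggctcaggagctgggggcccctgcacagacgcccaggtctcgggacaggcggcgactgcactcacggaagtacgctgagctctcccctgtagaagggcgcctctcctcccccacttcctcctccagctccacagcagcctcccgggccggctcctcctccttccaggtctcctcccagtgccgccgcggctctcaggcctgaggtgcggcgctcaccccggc
LAMC1, chr1:183023170-183023419, + strand: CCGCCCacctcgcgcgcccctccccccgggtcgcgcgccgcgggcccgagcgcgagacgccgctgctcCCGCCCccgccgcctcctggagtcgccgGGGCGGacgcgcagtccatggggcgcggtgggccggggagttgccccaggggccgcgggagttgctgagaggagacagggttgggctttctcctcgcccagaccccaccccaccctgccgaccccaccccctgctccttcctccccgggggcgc
COL16A1, chr1:31704018-31704267, - strand: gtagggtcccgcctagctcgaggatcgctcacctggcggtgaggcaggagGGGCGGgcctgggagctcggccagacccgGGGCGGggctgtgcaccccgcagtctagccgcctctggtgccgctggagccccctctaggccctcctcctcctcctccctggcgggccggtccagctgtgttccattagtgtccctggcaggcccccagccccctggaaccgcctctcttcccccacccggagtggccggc
COL9A2, chr1:40317287-40317536, - strand: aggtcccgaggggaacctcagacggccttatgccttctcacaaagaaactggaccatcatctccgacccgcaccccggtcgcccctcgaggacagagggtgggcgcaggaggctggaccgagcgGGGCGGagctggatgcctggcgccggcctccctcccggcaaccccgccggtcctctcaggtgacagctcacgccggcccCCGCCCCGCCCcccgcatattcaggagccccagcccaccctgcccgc
COL4A5, chrX:108439588-108439837, + strand: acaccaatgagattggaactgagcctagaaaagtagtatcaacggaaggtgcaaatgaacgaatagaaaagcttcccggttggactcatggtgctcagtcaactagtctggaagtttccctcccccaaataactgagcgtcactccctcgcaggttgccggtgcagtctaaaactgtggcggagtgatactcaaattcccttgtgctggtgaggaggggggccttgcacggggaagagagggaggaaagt

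GC boxes stood 3 times before LAMC1, 3 times before COL9A2, where 2 of them share letters, and 2 times before COL16A1, and not before ITGAV and COL4A5. The start table held 54 of the 78 genes, 30 of the 42 measured ones, with 41 windows since some genes have more than 1 start. Some windows of the same gene overlap, as for COL5A1 and LAMB3, so the same site can count more than once in the shares. A GC box lay in 68.3% of those 41 windows and in 42.6% of all 35116 windows of the table, a half-site in 9.76% and 12.4%, and a TATA box in 14.6% and 10.7%. The 41 windows belong to measured genes only, while the windows of the whole table had no minimum count. In the 71 windows of all 54 genes, measured or not, the shares were 56.3%, 9.86% and 11.3% in the same order. The full androgen element in exactly these letters was in 0 of the 41 windows and in 1 of all windows; elements further from the start were not searched. GC content of the window was 70.8% for ITGAV, 79.6% for LAMC1, 73.2% for COL16A1, 71.6% for COL9A2 and 51.2% for COL4A5.

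Per length of transcript, LAMC1, ITGB1, LAMB2 and COL6A1 had the highest levels of the measured genes at 24 h, in that order. Their levels were 103, 97.1, 82.0 and 51.1 CPM per kb, against 40.9, 50.4, 133 and 100.3 CPM per kb at 0 h, so LAMB2 and COL6A1 led in untreated cells. At the other end 17 of the 78 genes had a mean of at most 3 counts, and COL29A1 (now COL6A5) had no read, which allows a level of up to 0.146 to 0.228 CPM in a library. The measured gene nearest to the minimum was COL4A3 with a mean of 20.7 counts, and just outside it was COL8A2 with 18.8 counts, which stood at 0.194 CPM at 24 h and 0.465 CPM at 48 h, against 2.28 CPM at 0 h.

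**Figure D1:**
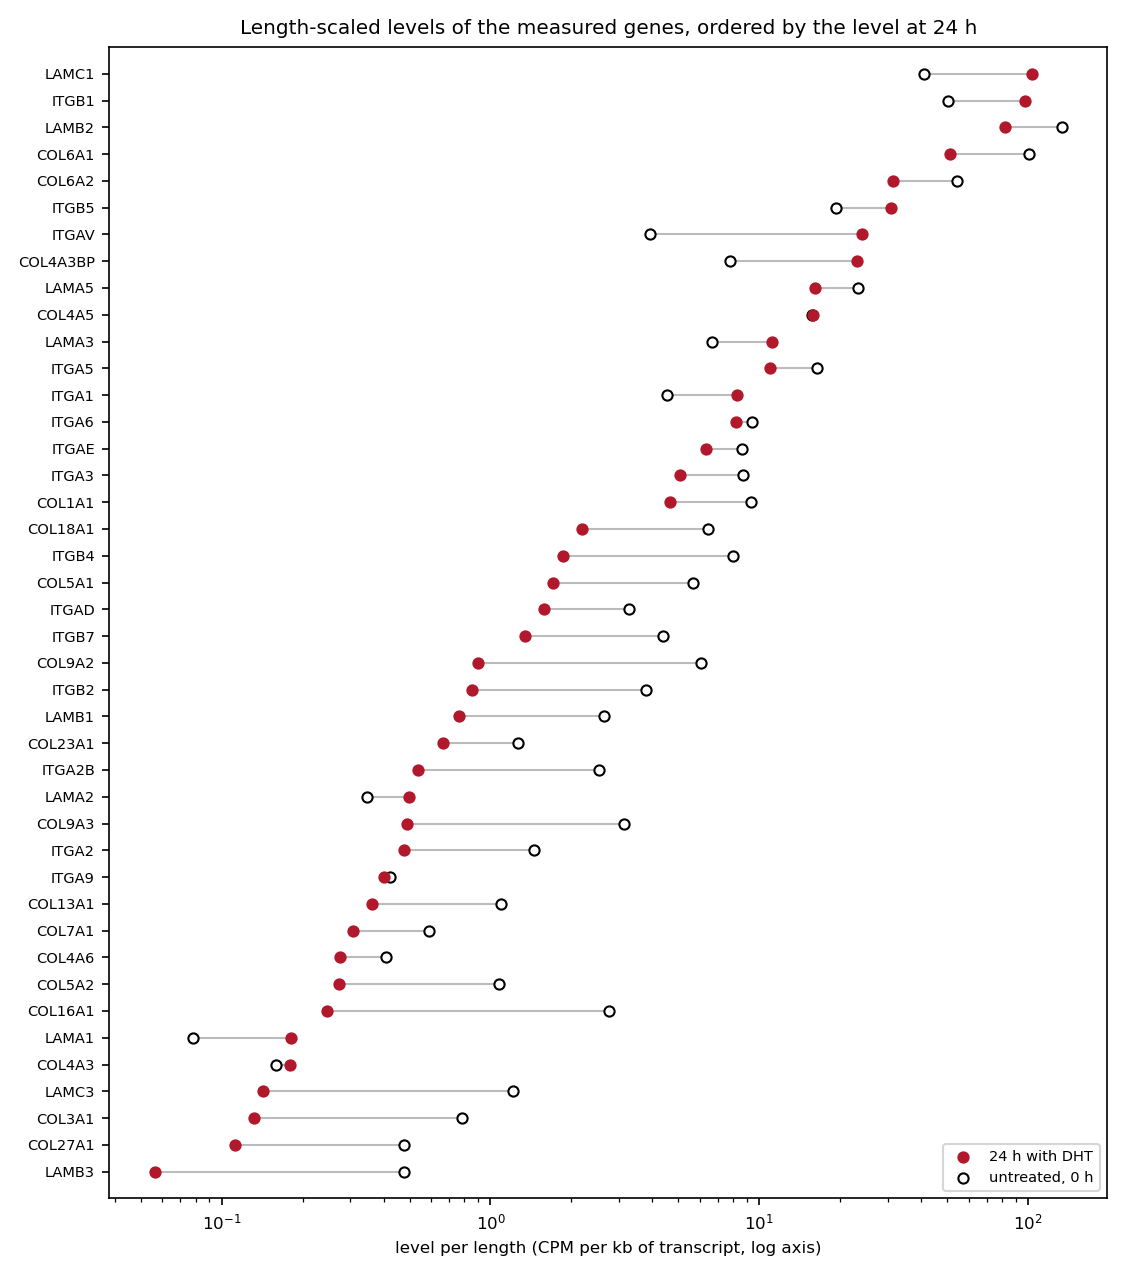
Level of each measured gene per kb of transcript (CPM per kb, log axis) at 24 h with DHT (filled) and in untreated cells at 0 h (open), 1 library each, ordered by the 24 h level. LAMC1 and ITGB1 lead at 24 h with 103 and 97.1 CPM per kb, against 40.9 and 50.4 CPM per kb at 0 h, and ITGAV stands at 24.2 CPM per kb, against 3.92 CPM per kb at 0 h.

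After 24 h with DHT, 3 of the 42 measured genes (7.14%) had passed the 2-fold rule upward and 16 (38.1%) downward. Among all genes with the same minimum 10.5% were higher and 10.8% lower. The 3 higher genes were ITGAV, LAMC1 and COL4A3BP. The 16 lower genes were 8 collagen chains, 5 integrin subunits and 3 laminin chains. At 48 h 4 were higher and 13 lower, where all genes had 15% and 7.33%; the same 3 genes and LAMA3 were higher, and 12 genes were lower at both times. The median log2 change of the measured genes was -0.77 at 24 h and -0.55 at 48 h, beside -0.09 and -0.06 over all genes.

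The base composition of the transcripts moved with these changes. Across the 11570 genes with a GC value the log2 change at 24 h had a correlation with GC content of r = -0.52, and across the 42 measured genes r = -0.66; genes are not independent replicates, and all values come from the same pair of libraries. At the other times r over all genes was 0.23 at 3 h, -0.74 at 6 h, -0.62 at 12 h (10985 genes) and -0.56 at 48 h. The measured collagens had a median GC content of 62.8% and the measured integrin beta subunits 59.4%, beside 49.4% over all genes. With the trend over all genes removed, the 3 higher genes at 24 h were the same and 12 of the 16 lower genes remained lower by 2-fold, where all genes then had 7.1% higher and 6.57% lower. The median of the measured genes was then -0.22. At 48 h the corrected counts were 5 higher and 7 lower, in place of 4 and 13, with 7.24% and 4.81% over all genes, and the corrected median was -0.23. Of the measured genes 7 overlap another protein-coding gene (COL18A1 with SLC19A1, COL4A3BP with POLK, COL9A3 with TCFL5, ITGA1 with PELO, ITGAE with P2RX5 and HASPIN, ITGB4 with GALK1 and ITGB7 with ZNF740), and reads of such neighbours may not be told apart. Corrected values are given below wherever they end or add a 2-fold call at 24 or 48 h, and for some other genes, and the part of base composition in any single change was not tested.

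**Figure D2:**
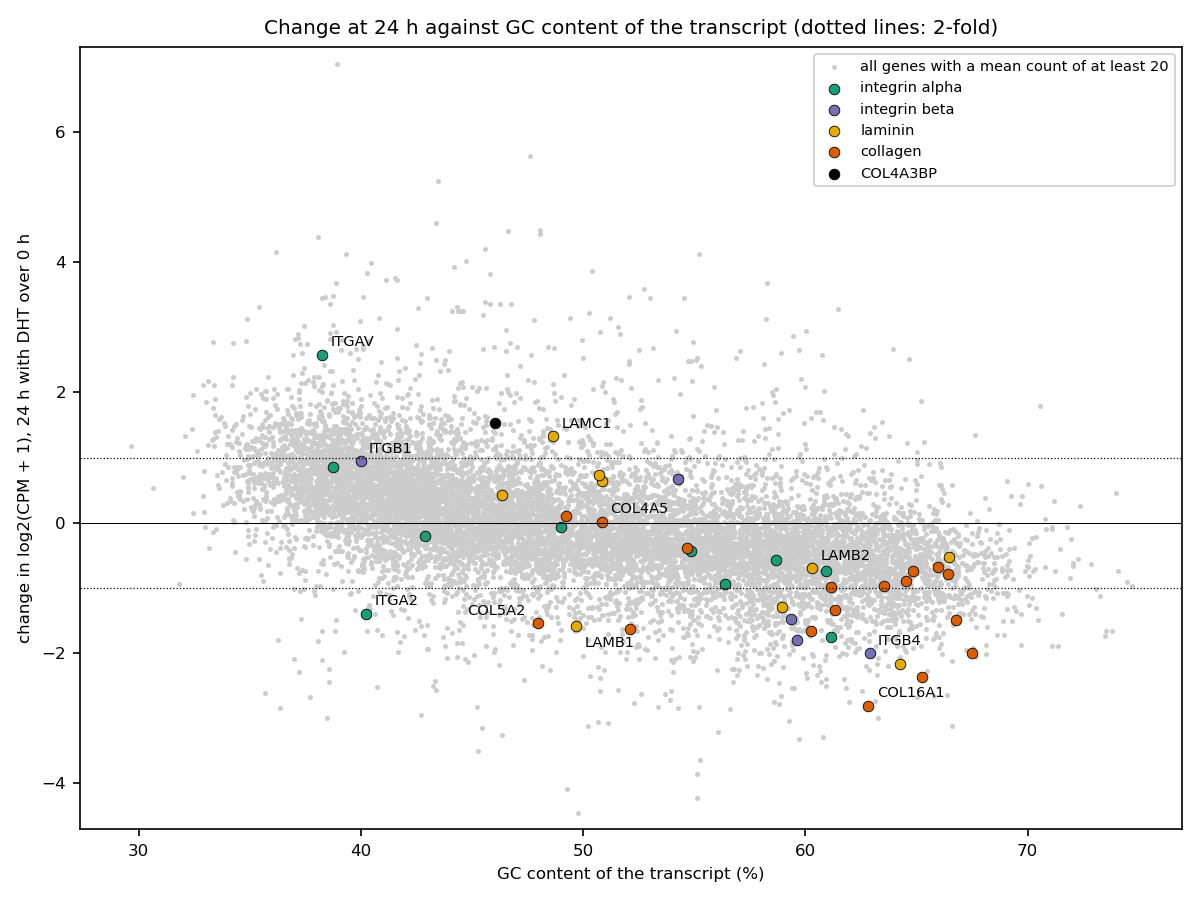
Change in log2(CPM + 1) at 24 h with DHT over untreated 0 h against GC content of the transcript, for all genes with a mean count of at least 20 (grey) and for the measured integrins, laminins, collagens and COL4A3BP (coloured). The cloud slopes down with GC content, and COL16A1 and ITGB4 lie low at high GC content while ITGA2, COL5A2 and LAMB1 lie low at 40.2, 47.9 and 49.7%.

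Among integrin alpha subunits ITGAV had the largest change. It encodes the alpha V chain, which pairs with several beta subunits to bind vitronectin, fibronectin and latent TGF-beta. Its level was 27.5 CPM at 0 h, 21.4 at 3 h, 126 at 6 h, 145 at 12 h, 169.9 at 24 h and 221 CPM at 48 h. The untreated and 3 h libraries were low, the step came between 3 and 6 h, and each later library lay higher than the one before. The ratio to 0 h was 4.59 (95% interval 4.10 to 5.16) at 6 h, 6.17 (5.53 to 6.89) at 24 h and 8.01 (7.18 to 8.95) at 48 h. The log2 change was 2.16 at 6 h, 2.58 at 24 h and 2.96 at 48 h. With the GC trend removed, for a transcript of 38.3% GC, it was 1.09, 1.89 and 1.93.

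The collagen receptors of the alpha class differed from each other. ITGA1, a receptor of collagen IV that has a GC content of 38.8%, had 88.5 CPM at 24 h and 74.7 CPM at 48 h, against 48.7 CPM at 0 h, ratios of 1.82 (1.66 to 1.99) and 1.53 (1.39 to 1.69). On the log2 scale this was 0.85 and 0.61, short of 2-fold, and 0.19 and -0.36 with the GC trend removed. ITGA2, the main receptor of fibrillar collagen I, had 11.5, 7.01, 9.25, 6.46, 3.74 and 7.18 CPM in the order of time. It was lowest at 24 h, at 0.326 times (0.245 to 0.432) its untreated level, and partly back at 48 h. Because its transcript is also low in GC (40.2%), removing the trend made its decrease larger, -1.94 in place of -1.39 at 24 h. It was then past 2-fold at 48 h as well (-1.37 in place of -0.61) and at 6 and 12 h (-1.15 and -1.47).

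The laminin and fibronectin receptors were closer to their untreated levels. ITGA6, whose protein pairs with ITGB1 or ITGB4 to bind laminin, had 53.0, 31.2, 54.2, 58.5, 46.1 and 62.5 CPM, and was lowest in the 3 h library (0.590 times 0 h, 0.523 to 0.666). ITGA3, another laminin receptor, had 24.9 CPM at 24 h and 24.6 CPM at 48 h, against 42.3 CPM at 0 h. ITGA5, the classical fibronectin receptor, had 48.7 and 54.2 CPM at those times, against 72.5 CPM at 0 h. Neither reached 2-fold, and after GC correction their values at 24 h were -0.20 and -0.08.

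ITGA2B, the alpha chain of the platelet fibrinogen receptor, fell to 1.80 CPM at 24 h and 2.46 CPM at 48 h, against 8.42 CPM at 0 h. The ratio at 24 h was 0.213 (0.143 to 0.312), and at 48 h the corrected log2 change of -0.97 was short of 2-fold. Of the leukocyte alpha subunits ITGAE, which pairs with ITGB7 to bind E-cadherin, had 24.4 CPM at 24 h and 27.2 CPM at 48 h, against 33.3 CPM at 0 h. ITGAD had 6.17 CPM at 24 h and 6.25 CPM at 48 h, against 12.8 CPM at 0 h, log2 changes of -0.95 and -0.93. ITGA9 stayed between 2.83 and 5.50 CPM, with log2 changes of -0.06 at 24 h and 0.24 at 48 h. The other 7 alpha subunits, ITGA4, ITGA7, ITGA8, ITGA10, ITGAL, ITGAM and ITGAX, had means between 0.167 and 17.5 counts.

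Of the beta subunits, 2 were abundant and higher with DHT without reaching 2-fold, and 3 were lower. At 24 h 0 of the 5 measured ones were 2-fold higher and 3 lower, beside 10.5% and 10.8% of all genes. After GC correction 0 were higher and 2 lower, beside 7.1% and 6.57%. At 48 h 0 were higher and 3 lower, beside 15% and 7.33%, and after correction 1 and 1, beside 7.24% and 4.81%. ITGB1, the common partner of most alpha subunits, had 191, 155, 322, 343, 367 and 373 CPM in the order of time. The 4 libraries from 6 h on lay above the 0 h and 3 h libraries, and the ratio was 1.93 (1.84 to 2.02) at 24 h and 1.96 (1.87 to 2.05) at 48 h. Its transcript has 40.0% GC, and the log2 changes of 0.94 and 0.96 became 0.38 and 0.17 after GC correction. At 6 and 12 h the log2 changes of 0.75 and 0.84 became -0.14 and 0.10. With the libraries scaled by TMM or by the median of ratios, without GC correction, ITGB1 was past 2-fold at 24 and 48 h.

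ITGB5, a vitronectin receptor subunit that pairs with ITGAV, had 84.3, 94.5, 70.8, 103, 135 and 150.5 CPM. It was lowest at 6 h and highest at 48 h, with ratios of 1.60 (1.496 to 1.72) at 24 h and 1.78 (1.66 to 1.92) at 48 h. After GC correction it lay just short of 2-fold at 24 h and past it at 48 h, with a log2 change of 1.19. The other partners of ITGAV were near the floor: at 24 h ITGB3 had 0.0971 CPM, ITGB6 no read and ITGB8 0.486 CPM, against 0.228 CPM, no read and 0.152 CPM at 0 h. Per kb of transcript ITGB1 stood 4.02 times above ITGAV at 24 h and 12.9 times above it at 0 h.

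ITGB4, the beta subunit of the hemidesmosome, was lower with DHT. It had 45.1, 33.9, 18.05, 14.7, 10.5 and 15.9 CPM in the order of time. Each library up to 24 h lay below the one before, and the ratio to 0 h was 0.400 (0.343 to 0.466) at 6 h, 0.233 (0.198 to 0.272) at 24 h and 0.352 (0.302 to 0.410) at 48 h. By the main rule it was the first of the measured genes to pass 2-fold downward, at 6 h. Under TMM scaling COL9A3 passed at 6 h too, and under the median of ratios COL9A3, ITGA3 and LAMC3. After GC correction the log2 change of ITGB4 was -0.74 at 6 h, short of 2-fold. It was -1.40 at 24 h in place of -2.00, and -0.96 at 48 h, also short. Its alpha partner ITGA6 stood 4.41 times above it per kb at 24 h and 1.18 times at 0 h.

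The leukocyte beta subunits were lower too. ITGB2 had 11.2, 11.1, 7.31, 6.53, 2.53 and 1.06 CPM, and was lower in each successive library. Its ratio was 0.225 (0.161 to 0.310) at 24 h and 0.0947 (0.0527 to 0.159) at 48 h, and it stayed past 2-fold after GC correction, with -1.28 and -2.10. ITGB7 had 12.5, 8.57, 7.68, 4.33, 3.84 and 5.65 CPM. It was lowest at 24 h, at 0.307 times (0.231 to 0.403) its level at 0 h, with a corrected log2 change of -0.98; at 48 h its log2 change of -1.02 did not reach 2-fold after GC correction (-0.56) or under TMM or median-of-ratios scaling.

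Among laminins the gamma chains parted. LAMC1, the gamma 1 chain found in most laminins, had 323, 435, 593, 773, 813 and 822 CPM in the order of time. It was higher in each library than in the one before, 1.35 times (1.30 to 1.40) its untreated level at 3 h, 2.52 times (2.44 to 2.61) at 24 h and 2.55 times (2.46 to 2.64) at 48 h. The log2 change of 1.33 at 24 h was 1.41 after GC correction. LAMC3, the gamma 3 chain, had 7.44, 8.79, 3.43, 3.82, 0.874 and 0.930 CPM. The untreated and 3 h libraries were high and the last pair low, at 0.118 times (0.0669 to 0.196) and 0.125 times (0.0660 to 0.220) the level at 0 h, from 18 and 14 counts; its corrected log2 changes were -1.52 in place of -2.17 at 24 h and -1.63 in place of -2.13 at 48 h. LAMA4 and LAMB4 had means of 0.833 and 6.67 counts.

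LAMA3, an alpha chain of the laminin that anchors epithelium at hemidesmosomes, was higher with DHT. Its levels were 70.9, 99.6, 162, 120.5, 118 and 208 CPM, with a first high at 6 h and the highest value at 48 h. The ratio was 2.28 (2.11 to 2.46) at 6 h, 1.67 (1.55 to 1.80) at 24 h and 2.94 (2.73 to 3.17) at 48 h, and the log2 change at 48 h was 1.54 before and 1.76 after GC correction. Its partner LAMB3 was low, with 2.05, 2.91, 1.49, 2.05, 0.243 and 2.39 CPM. Only the 24 h library was low, with 5 counts against 27 at 0 h, a ratio of 0.119 (0.0357 to 0.312), and the corrected log2 change of -0.80 was short of 2-fold.

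LAMA5, the alpha chain of the laminins common in adult epithelium, had 184 CPM at 24 h and 213 CPM at 48 h, against 265 CPM at 0 h, and was lowest at 6 h with 144 CPM. Its transcript has 66.4% GC, and the log2 changes of -0.52 and -0.31 became 0.18 and 0.20 after correction. LAMB2, the beta 2 chain and the most abundant laminin message of untreated cells, had 756, 729, 457, 453, 465 and 534 CPM. The 0 h and 3 h libraries were high and the other 4 lower, and the ratio at 24 h was 0.616 (0.599 to 0.633), with a log2 change of -0.70 that was -0.17 after correction. LAMC1 stood at 1.26 times LAMB2 per kb at 24 h and at 0.307 times at 0 h.

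LAMB1, the beta 1 chain, had 15.2, 13.9, 14.5, 9.39, 4.37 and 7.84 CPM. It held its level to 6 h, was lowest at 24 h at 0.288 times (0.222 to 0.371) its untreated level and stood at 0.517 times (0.408 to 0.652) at 48 h; GC correction left -1.46 of -1.59 at 24 h. LAMA1, the alpha chain of embryonic laminin, was at least 2-fold higher at 6 and 12 h, with 0.759, 2.48, 3.88, 3.52, 1.75 and 1.93 CPM from 10 counts at 0 h, and is named for its place in those counts. LAMA2, the alpha chain of muscle laminin, had 4.81 CPM at 24 h and 3.79 CPM at 48 h, against 3.34 CPM at 0 h. Over the 9 measured laminin chains 1 was higher and 3 were lower at 24 h, beside 10.5% and 10.8% of all genes. After GC correction 1 was higher and 2 were lower, beside 7.1% and 6.57%. The median log2 change of these chains, -0.52, took the opposite sign, 0.18, after GC correction.

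None of the 17 measured collagen chains was at least 2-fold higher at any time, and 8 were lower at 24 h and 8 at 48 h, where 10.8% and 7.33% of all genes were lower. Their median log2 change was -0.99 at 24 h and -0.96 at 48 h, and -0.43 and -0.49 after GC correction, when 6 and 4 were lower by 2-fold beside 6.57% and 4.81% of all genes. All 3 measured chains that sit on the surface of fibres were among the lower genes at both times before correction. COL16A1 had 15.9, 15.8, 9.17, 5.36, 1.41 and 1.53 CPM in the order of time. Untreated and 3 h cells were alike, and the later libraries lay lower, at 0.338 times (0.255 to 0.443) at 12 h, 0.0888 times (0.0581 to 0.131) at 24 h and 0.0964 times (0.0598 to 0.149) at 48 h. Its log2 change at 24 h was -2.81, and -2.21 after GC correction.

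Type IX chains, which belong to the same class, behaved alike. COL9A2 had 17.4, 17.4, 9.84, 5.94, 2.57 and 3.99 CPM, with a ratio of 0.148 (0.108 to 0.201) at 24 h and 0.230 (0.170 to 0.306) at 48 h. COL9A3 had 7.81, 8.36, 3.43, 3.30, 1.21 and 3.06 CPM and was lowest at 24 h, at 0.155 times (0.0961 to 0.242) its untreated level. The corrected log2 changes at 24 h were -1.69 and -1.26, and at 48 h -1.37 and -0.59, the last short of 2-fold. COL9A1, the remaining chain of type IX, had 1 count in all 6 libraries together.

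Of the 5 measured fibrillar chains 4 were lower at 24 h, beside 10.8% of all genes, and 3 after GC correction, beside 6.57%. COL5A1 and COL5A2 encode the chains of type V collagen, which starts the assembly of fibres. COL5A1 had 48.1, 43.4, 29.4, 20.8, 14.5 and 24.3 CPM, lowest at 24 h with a ratio of 0.302 (0.262 to 0.347). COL5A2 had 7.59, 8.22, 11.6, 6.02, 1.94 and 1.46 CPM; it was highest at 6 h and then 0.256 times (0.173 to 0.373) at 24 h and 0.193 times (0.116 to 0.308) at 48 h. COL5A2 has 47.9% GC, and its log2 change at 48 h was -1.80 before and -1.74 after correction.

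COL3A1, the chain of type III collagen, had 4.32, 5.31, 2.16, 2.05, 0.729 and 0.731 CPM, a ratio of 0.168 (0.0886 to 0.302) at 24 h from 15 counts. COL27A1 had 0.874 CPM at 24 h and 1.06 CPM at 48 h, against 3.72 CPM at 0 h, and its corrected log2 changes of -0.78 and -0.72 were short of 2-fold. COL1A1, the most abundant fibrillar chain, stood at the edge of the rule: it had 31.2 CPM at 24 h and 36.4 CPM at 48 h, against 62.8 CPM at 0 h, which is -0.99 and -0.77 on the log2 scale, or -0.43 and -0.30 with the trend removed. COL1A2, its partner in type I collagen, had 1 count in all libraries together, at 24 h.

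COL6A1, a type VI chain, had the highest level of the collagens in every library. It had 425, 390.5, 279, 310.2, 217 and 217 CPM, and its ratio was 0.510 (0.490 to 0.530) at 24 h and 0.511 (0.489 to 0.534) at 48 h. COL6A2 had 108 CPM at 24 h and 118 CPM at 48 h, against 188 CPM at 0 h. Neither reached 2-fold, and their corrected log2 changes at 24 h were -0.34 and -0.08. COL6A3, which joins them in the usual type VI trimer, had between 1 and 7 counts in a library.

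Of the 3 measured type IV chains 0 passed the 2-fold rule at 24 or 48 h. Among all genes 10.5% were higher and 10.8% lower at 24 h, and 15% and 7.33% at 48 h. With 3 chains, a count of 0 does not set type IV apart from all genes. The most abundant was COL4A5, which had 101, 95.3, 134, 134, 102 and 94.6 CPM. It was highest at 6 and 12 h, 1.33 times (1.24 to 1.43) and 1.34 times (1.25 to 1.44) its untreated level, and the ratios at 24 and 48 h were 1.01 (0.943 to 1.08) and 0.941 (0.872 to 1.01). COL4A6 lies head to head with COL4A5, the nearest starts being 380 bases apart, and the window printed for COL4A5 lies in that space. COL4A6 had 2.73, 2.34, 5.07, 3.82, 1.85 and 2.72 CPM, and was likewise highest at 6 h, while COL4A5 stood 57.4 times above it per kb at 24 h and 38.4 times at 0 h. COL4A3 stayed between 0.850 and 1.66 CPM. COL4A1 and COL4A2, the main chains of most basement membranes, had at most 2 and 38 counts in a library, and COL4A2 had 0.437 CPM at 24 h, against 1.97 CPM at 0 h.

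COL18A1, the precursor of endostatin in basement membranes, had 38.1, 33.6, 20.4, 22.7, 12.97 and 14.7 CPM. Its ratio was 0.340 (0.292 to 0.396) at 24 h and 0.386 (0.328 to 0.453) at 48 h, and its log2 changes of -1.48 and -1.32 were -0.77 and -0.80 after GC correction, for a transcript of 66.8% GC. COL13A1, a transmembrane collagen, had 0.729 CPM at 24 h and 0.332 CPM at 48 h, against 2.20 CPM at 0 h, from 5 counts at 48 h; its log2 change at 48 h was -1.26, and -0.76 after GC correction, short of 2-fold. COL23A1, also transmembrane, was highest at 3 h with 6.59 CPM and had 2.04 CPM at 24 h, against 3.87 CPM at 0 h, a log2 change of -0.68 that was 0.01 after correction. COL7A1, the anchoring fibril chain, had 5.46, 3.40, 4.92, 3.08, 2.87 and 7.71 CPM, lowest at 24 h and highest at 48 h, where the ratio was 1.41 (1.04 to 1.92). Its log2 change at 24 h was -0.74, and -0.08 after correction. The other 16 chains that were not measured, COL2A1, COL4A4, COL5A3, COL8A1, COL10A1, COL11A1, COL12A1, COL14A1, COL15A1, COL19A1, COL20A1, COL21A1, COL22A1, COL24A1, COL25A1 and COL28A1, had means between 0.833 and 11.3 counts.

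COL4A3BP, the ceramide transfer protein, had 21.9, 18.1, 56.1, 60.1, 65.5 and 83.3 CPM, with ratios of 2.99 (2.63 to 3.40) at 24 h and 3.80 (3.34 to 4.33) at 48 h. Without it the 24 h counts were 2 higher and 16 lower of 41 genes.

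**Figure D3:**
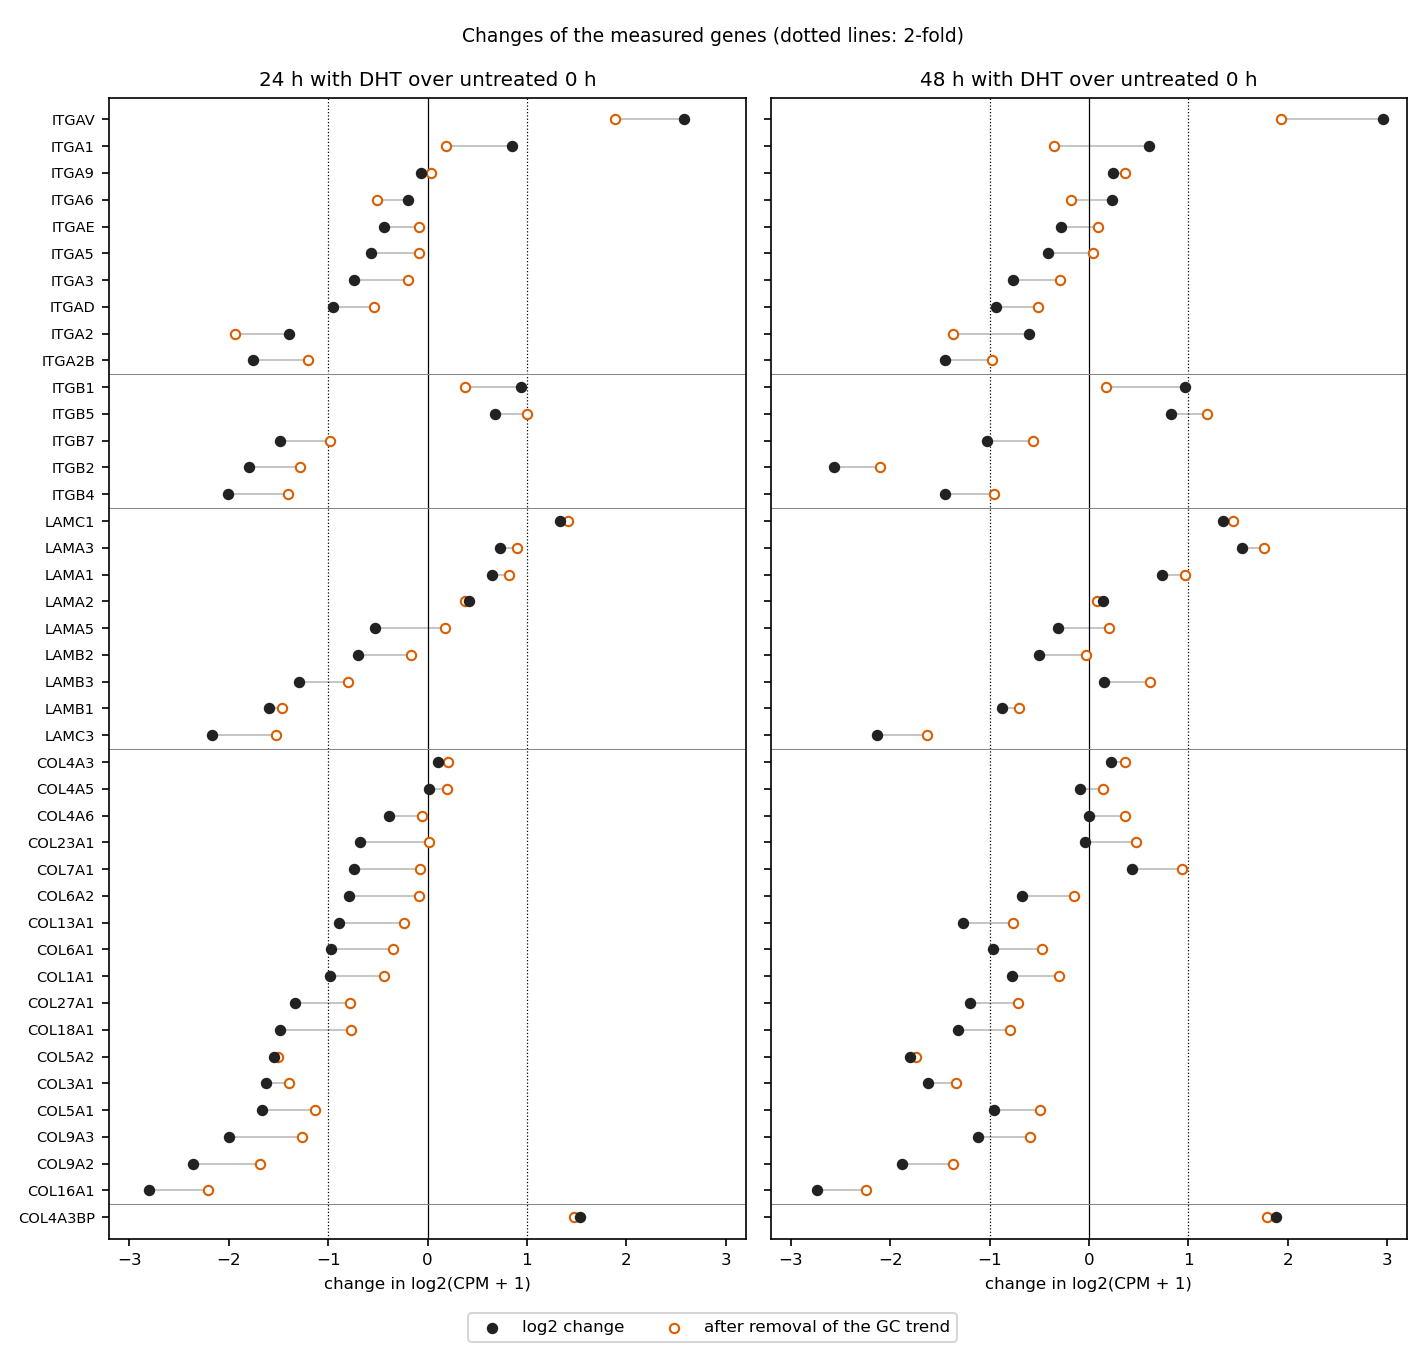
Change in log2(CPM + 1) of each measured gene at 24 h and at 48 h with DHT over untreated 0 h (filled) and the same after removal of the GC trend over all genes (open), grouped as integrin alpha subunits, integrin beta subunits, laminins, collagens and COL4A3BP. ITGAV and LAMC1 lie to the right of the 2-fold line in both panels, and COL16A1, COL9A2, COL5A2, COL3A1, LAMC3 and ITGB2 to the left of it, filled and open alike.

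Fewer genes had passed the rule at the earlier times. At 3 h 0 of the 42 genes were 2-fold higher or lower, where all genes had 0.747% and 0.864%, and 0.942% and 0.424% after GC correction. At 6 h 4 were higher, ITGAV, LAMA1, LAMA3 and COL4A3BP, and 1 was lower, ITGB4, beside 15.3% and 3.01% of all genes; under median-of-ratios scaling 4 were higher and 4 lower, and under TMM 4 and 2. After GC correction the 6 h counts were again 4 higher and 1 lower, beside 3.74% and 1.56%, but the lower gene was ITGA2. At 12 h 4 were higher and 7 lower, beside 11.7% and 3.82% of genes outside chromosome 4 and distal chromosome 15, and after GC correction 4 and 3, beside 4.2% and 2.9%. The lower genes at 12 h were COL16A1, COL5A1, COL9A2, COL9A3, ITGA2B, ITGB4 and ITGB7, and after correction ITGA2, ITGB4 and ITGB7. In the 12 h library messages of chromosome 4 and of distal chromosome 15 are nearly missing, and 1 of the 78 genes, COL25A1, lies there; it was not measured and its 12 h value was not used.

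Summed over the genes of a class, integrin alpha subunits had 419 CPM at 24 h and 487 CPM at 48 h, against 316 CPM at 0 h, and without ITGAV 249 and 266 CPM, against 289 CPM. The beta subunits summed to 520.1 and 547 CPM, against 344 CPM at 0 h, and without ITGB1 to 153 and 175 CPM, against 153 CPM. The laminin chains summed to 1593 and 1795 CPM, against 1444 CPM at 0 h, and without LAMC1 to 779.8 and 973 CPM, against 1121 CPM. The collagen chains summed to 506 and 537 CPM, against 944 CPM at 0 h. Of the collagen sum COL6A1 and COL6A2 made up 217 and 108 CPM at 24 h, against 425 and 188 CPM at 0 h.

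Genes that work with these families were read from 5 lists, beside 10.5% of all genes higher and 10.8% lower at 24 h, and 7.1% and 6.57% after GC correction. For collagen maturation 1 of 19 measured genes was 2-fold higher and 7 were lower at 24 h, with a median log2 change of -0.79 (-0.29 after GC correction, with 2 higher and 4 lower). PCOLCE and PCOLCE2, enhancers of procollagen cleavage, had -1.81 and -1.22, the crosslinking enzyme LOXL1 -1.38 (-0.66 after correction, short of 2-fold), and CRTAP, which serves prolyl hydroxylation, -1.18. The higher gene was LEPREL1 with 1.07 (corrected 1.255), and PPIB passed 2-fold only after correction, with 1.06 in place of 0.59. Of 28 integrin adaptors 2 were higher and 7 lower, and 2 and 3 after correction (median -0.30, corrected 0.01). The focal adhesion protein TNS1 had -2.25, the kindlin FERMT1 -2.25, the talin TLN2 -1.75 and the parvin PARVB -1.31 (corrected -0.98, short of 2-fold), while the 2 higher genes were PARVA with 1.29 and vinculin, VCL, with 1.24.

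Of 17 measured genes for other basement membrane and adhesive proteins 0 were higher and 7 lower at 24 h, and 0 and 5 after correction (median -0.84, corrected -0.53). Fibronectin, FN1, a ligand of ITGA5 and ITGAV, had 219 CPM at 24 h and 386 CPM at 48 h, against 1313 CPM at 0 h. FBLN2 had a log2 change of -2.54 at 24 h, the basement membrane proteoglycan HSPG2 -1.98 and TINAGL1 -1.84. Of 16 other matrix receptors 0 were higher and 5 lower, and 0 and 2 after correction (median -0.80, corrected -0.35). The syndecans SDC4 and SDC2 had -1.98 and -1.62. The collagen uptake receptor MRC2 had -1.59 and the tetraspanin CD82 -1.31, both short of 2-fold after correction (-0.96 and -0.74). Of 11 matrix proteases and inhibitors 2 were higher and 4 lower, and 1 and 2 after correction (median -0.48, corrected -0.36). The membrane protease MMP16 had -2.84, the inhibitor TIMP2 -2.62, MMP11 -1.35 (corrected -0.77, short of 2-fold) and the sheddase ADAM9 1.95.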

How the data were processed

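Messenger RNA was sequenced in 6 libraries of LNCaP cells, 1 per time. Groups came from the sample labels, and columns of the deposited table were tied to samples by the time in its header. The submitters' processing notes name hg19 as the build; which aligner and counter were run, and whether strand was used, is not given in the sources used. Per the file headers, the authors gave for each RefSeq transcript a tag count and an RPM value (ppm), the count scaled to the reads of the library. Listed transcripts held 86.9 to 89.5% of the authors' denominator. The analysis used the deposited counts, and the RPM values served as a check on scaling.

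The table had 18051 lines; 50 that repeated another exactly were dropped and transcripts with 1 symbol were added; each of the 78 genes had 1 line. CPM was taken over the listed transcripts, with 1 CPM added on the log2 scale and a minimum mean count of 20. At 12 h, genes on chromosome 4, on chromosome 15 distal of and including LCTL and of unknown chromosome (927 of 11916) were left out. Transcript length and GC content came from GENCODE 29, for 76 of the 78 genes by the same RefSeq accession and for COL1A1 and COL24A1 from the longest transcript of the gene. LAMA3 has more than 1 start, so its value per kb rests on the long transcript. The GC trend was a lowess curve (span 0.3, statsmodels 0.14.6) over the 11570 measured genes with a GC value. TMM factors came from edgeR 4.0.16, and intervals from scipy 1.17.1; the calls, intervals and trend removal were tested on simulated data. Of the measured genes 7 overlap another protein-coding gene in RefSeq on GRCh38.p14 and 23 a long non-coding RNA, and reads of overlapping genes may not be told apart. Intervals cover counting error only, since no molecular identifiers are named. Genes named are those past 2-fold at 24 or 48 h, the most abundant of each class and the partners of a named complex, and the 4 largest changes at 24 h per partner list. LAMA1, PARVA, VCL, LEPREL1, PPIB and the other members given with values stand for a count or to account for every gene. P4HB and DDR1 of the lists were not used here. Genes and lists were chosen with earlier results of these data known. Some listed genes are not reported here.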

Additional observations from a re-analysis of the deposited data

How the results depend on the processing

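Under TMM scaling, 1 gene was higher at 3 h and 2 were lower at 6 h, and under the median of ratios 4 were lower at 6 h; both gave 5 higher at 24 h, adding ITGA1 and ITGB1. These scalings moved the median of all genes at 24 h by 0.17 and 0.14 on the log2 scale and at 48 h by 0.10 and 0.07, and at 24 h the 16 lower genes were the same under both. With a pseudocount of 0.25 CPM, 1 was higher at 3 h and 3 were lower at 6 h. With the GC trend removed 3 were lower at 12 h and 7 at 48 h. A threshold of 1.5-fold gave 2 higher and 2 lower at 3 h, 7 and 17 at 6 h, and 17 lower at 12 h. At 24 h it gave 8 and 25 and at 48 h 8 and 21. Shares over all genes were taken only for the main 2-fold rule, before and after GC correction. Counts under the other scalings, the other pseudocount and the 1.5-fold threshold have no such share beside them. The deposited RPM, a minimum mean count of 5 and no minimum left each of the 10 counts within 1.5 times. Of the 19 genes called at 24 h 15, and of the 17 at 48 h 10, stayed past 2-fold under every scaling, the other pseudocount and GC removal. No paired analysis was possible because each time has 1 library, and for the same reason no library could be left out of a group. Genes of few counts, such as LAMB3, COL13A1, COL3A1 and LAMC3, carry wide intervals.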
